A study of Rattus norvegicus with 9 samples.

Results

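The miR-23, miR-27 and miR-24 microRNAs (miRNAs) are made from a pair of gene clusters, and miR-189 is an older name for the RNA from the other arm of a miR-24 hairpin. The members were the probes named rno-miR-23a, rno-miR-27a, rno-miR-23b, rno-miR-27b, rno-miR-24 and rno-miR-189, which are 6 of the 334 miRNA probes on the array, and all 6 were among the 178 probes bright enough to be tested. They were chosen by name, with earlier results of these data known. The rats were male, of the Sprague-Dawley strain and 6 months old, and the tissue was soleus, a postural hindlimb muscle. Soleus of controls was compared with that of animals held in hindlimb suspension, which takes the load off the hindlimbs by the tail and is used to induce atrophy, for 2 days or for 7 days. Each of the 3 groups had 3 one-colour arrays, and all groups shared the strain, sex, age and tissue. Whether replicates came from separate animals is not stated in the labels, and every p-value here measures only the spread among these 9 samples, which may be technical.

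A miRNA hairpin is cut into a short duplex, and usually one strand is kept by an Argonaute protein while the other is mostly lost. The kept strand pairs through its seed, the bases near its 5′ end, with target messenger RNAs and lowers their output. In mouse muscle, miR-23a is known to repress MuRF1 and atrogin-1, the ubiquitin ligases that mark muscle proteins for breakdown in atrophy. In mouse cells, miR-27a and miR-27b are known to repress myostatin, a secreted inhibitor of muscle growth, and miR-27b also represses Pax3, a regulator of muscle progenitors. In mouse myoblasts, miR-24 is known to increase during differentiation and to promote it.

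The target sequences of the 6 probes are shown because they decide which RNAs each probe can tell apart. They run 5′ to 3′ as the array files give them, and the capitals mark the seed, bases 2 to 8.
rno-miR-23a: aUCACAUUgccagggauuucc
rno-miR-23b: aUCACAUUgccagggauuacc
rno-miR-27a: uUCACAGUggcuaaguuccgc
rno-miR-27b: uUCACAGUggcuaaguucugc
rno-miR-24: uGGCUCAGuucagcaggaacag
rno-miR-189: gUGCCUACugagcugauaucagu

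The probes carry 4 seeds. The first pair shares the seed UCACAUU, the second pair shares UCACAGU, and no other probe on the array has either seed. Counted from the 5′ end, miR-23a and miR-23b differ by U19A alone, and miR-27a and miR-27b by C19U alone. The 2 probes of each pair may therefore share signal, and their values are not independent measurements. The seed GGCUCAG of miR-24 and the seed UGCCUAC of miR-189 are each found in 1 probe.

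Of the 6 targets, 5 are identical to the mature sequences in RefSeq (GRCr8). The miR-189 target holds all 22 bases of RefSeq's rno-miR-24-1-5p with 1 base more at its 3′ end. The hairpin Mir24-1, at chr17:1818669-1818736 on the minus strand of GRCr8, shows both arms, with the miR-189 target and then the miR-24 sequence in capitals. The second line gives rno-miR-24-2-5p, the corresponding arm of the other miR-24 hairpin, with its seed in capitals.
Mir24-1: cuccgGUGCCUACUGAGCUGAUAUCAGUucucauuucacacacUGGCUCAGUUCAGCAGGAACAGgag
rno-miR-24-2-5p: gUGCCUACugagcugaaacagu

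That second RNA has the seed of miR-189, shares its first 16 bases and lies 2 base edits away, and no probe on the array was made for it. The miR-189 probe may thus have picked up some of it. The other arm gives a different limit, because the mature miR-24 sequence is the same in both hairpins and the miR-24 probe reads their sum.

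In GRCr8, Mir23a, Mir27a and Mir24-2 lie within 389 bases at chr19:40859455-40859843 on the minus strand, with no annotated gene spanning them. Mir23b, Mir27b and Mir24-1 lie within 814 bases at chr17:1818669-1819482 on the minus strand, inside the protein-coding gene Aopep. Whether they fall in an exon or an intron of Aopep was not analysed here. The miR-189 arm comes from the chromosome 17 cluster, at chr17:1818710-1818731, and the miR-24 arm beside it at chr17:1818672-1818693.

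Log2 levels of the tested probes, after quantile normalisation, correlated between arrays with a mean r of 0.987 within groups and 0.986 between groups. Each array had 3968 spots, of which 614 were empty, and each miRNA probe had 9 repeat spots. The median brightness of the empty spots lay between 27.4 and 53.3 units. Levels below are log2 values after background correction and quantile normalisation between arrays, unless called brightness, and brightness is the mean of the scanner signal over the 9 spots. The number of arrays limits the precision of every comparison, and a level is compared only with the same probe on other arrays. In whole muscle, fewer cells of a type and less RNA per cell cannot be told apart.

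At neither 2 days nor 7 days of suspension did any of the 6 members pass the test against control. The 5 main-strand miRNAs, miR-23a, miR-27a, miR-23b, miR-27b and miR-24, were bright on every array and the largest difference of a group mean from control among them was the -0.15 log2 units of miR-24 at 2 days. The dim miR-189 was higher on each of the 6 suspended arrays than on every control array, by 0.51 ± 0.15 log2 units at 2 days and 0.54 ± 0.15 at 7 days (limma moderated standard error, 3 arrays against 3), and these differences did not pass adjustment over the 178 tested probes. The 2 comparisons share the 3 control arrays.

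**Figure D1:**
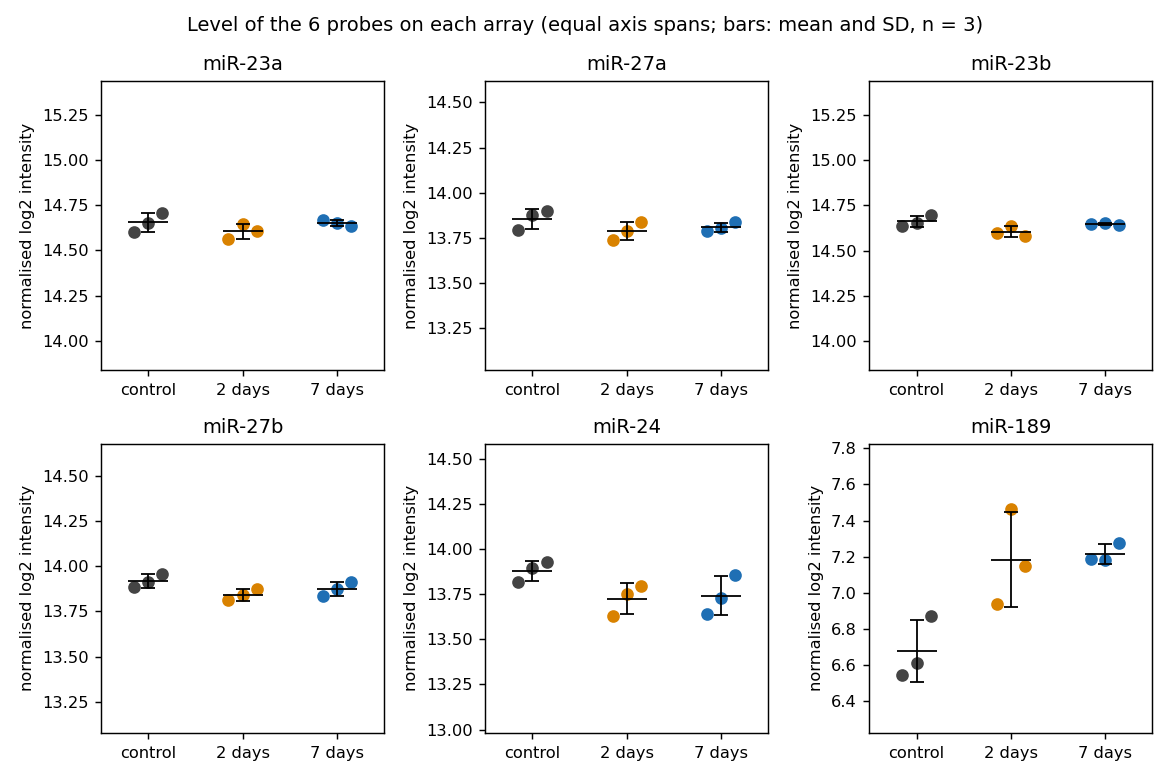
Normalised log2 level of each of the 6 probes on each array, by group; every point is 1 array, bars show the mean and SD of 3 arrays, and all axes span the same range. The control, 2-day and 7-day points lie close together for the 5 bright probes, and the suspended points of miR-189 lie above its control points.

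MiR-23a, the member known to act on the atrophy ligases, had log2 levels of 14.60, 14.65 and 14.71 in controls, 14.56, 14.64 and 14.61 after 2 days, and 14.67, 14.65 and 14.64 after 7 days. The groups overlapped at both times. Its log2 difference from control was -0.05 ± 0.07 at 2 days (95% interval -0.21 to 0.11, limma adjusted p = 0.974) and -0.0048 ± 0.068 at 7 days (-0.16 to 0.15, limma adjusted p = 0.995). Those intervals bound a change in either direction at about 0.2 log2 units on this scale only. Over the 22 processing alternatives the miR-23a estimate ran from -0.18 to -0.024 at 2 days and from -0.24 to 0.12 at 7 days. The lowest 7-day value lies outside the interval given above.

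MiR-23b, its counterpart from the chromosome 17 cluster, had log2 levels of 14.64, 14.65 and 14.69 in controls, 14.60, 14.64 and 14.58 after 2 days, and 14.65, 14.65 and 14.64 after 7 days. The 2-day range reached the lowest control, and the 7-day arrays lay inside the control range. Its log2 difference from control was -0.06 ± 0.06 at 2 days and -0.01 ± 0.06 at 7 days (limma adjusted p = 0.974 and 0.965). Every 7-day level of miR-23b was above every 2-day level, which 5.06% of tested probes also showed, and the log2 difference between those groups was 0.04 ± 0.06 (limma adjusted p = 0.948).

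MiR-27a had log2 levels of 13.79, 13.88 and 13.90 in controls, 13.74, 13.79 and 13.84 after 2 days, and 13.79, 13.80 and 13.84 after 7 days. Both suspended groups overlapped the controls, and the log2 differences were -0.07 ± 0.07 at 2 days and -0.05 ± 0.07 at 7 days (limma adjusted p = 0.974 and 0.946).

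MiR-27b, the member known to act on Pax3, had log2 levels of 13.88, 13.91 and 13.96 in controls, 13.81, 13.84 and 13.87 after 2 days, and 13.84, 13.87 and 13.91 after 7 days. All 3 2-day arrays were below all 3 controls, by a small margin, while the 7-day arrays overlapped them. The log2 difference was -0.08 ± 0.07 at 2 days (limma adjusted p = 0.921) and -0.04 ± 0.07 at 7 days (limma adjusted p = 0.946).

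MiR-24, which is read from both clusters together, had log2 levels of 13.82, 13.90 and 13.93 in controls, 13.63, 13.75 and 13.79 after 2 days, and 13.64, 13.73 and 13.85 after 7 days. Its 2-day arrays were all below the controls, and the highest 7-day array overlapped them. The log2 difference was -0.15 ± 0.09 at 2 days (95% interval -0.36 to 0.05, limma adjusted p = 0.873) and -0.14 ± 0.09 at 7 days (-0.34 to 0.06, limma adjusted p = 0.715). Of the 5 bright members this was the largest estimate at each time, and it did not pass the test.

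Among the members, miR-24 and miR-27b were lower on all 2-day arrays than on all control arrays, and 5.62% of tested probes showed the same. All 5 bright members had a negative estimate at 2 days, as did 60.1% of tested probes, and all 5 at 7 days, as did 58.4%. No member was lower on all 7-day arrays than on all control arrays, which 12.4% of tested probes were. At 7 days the sign of these estimates depended on the scaling between arrays. Without it all 5 were positive, between 0.085 and 0.15, while the median over all tested probes was 0.14, against -0.03 with quantile normalisation and -0.21 with median centring. Quantile normalisation holds bright probes near the same value on every array, and the small spread of these 5 was set partly by that step.

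Unnormalised brightness shows what that step removed. The brightness of miR-23a was 24184, 26934 and 25320 in controls, 21721, 23465 and 26520 after 2 days, and 25407, 27967 and 29537 after 7 days. The 7-day range of brightness reached above the control range, and it did so for all 5 bright members. The spread among the 9 repeat spots of one array, as a coefficient of variation, was 4.95% to 12.2% for these probes.

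The near-identical pairs moved together within arrays, so their difference is largely free of array scaling. The log2 level of miR-23a minus that of miR-23b was -0.01 ± 0.02 in controls, 0.00 ± 0.03 in the 2-day group and 0.00 ± 0.01 in the 7-day group (SD, n = 3). For miR-27a minus miR-27b the difference was -0.06 ± 0.03 in controls, -0.05 ± 0.02 in the 2-day group and -0.06 ± 0.02 in the 7-day group (SD, n = 3). Neither difference moved between groups by more than its spread. Since the probes of a pair may share signal, this does not show that the chromosome 19 and chromosome 17 clusters were equally expressed.

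The log2 level of miR-24, which both clusters feed, minus that of miR-27b was -0.04 ± 0.03 in controls, -0.12 ± 0.06 in the 2-day group and -0.13 ± 0.07 in the 7-day group (SD, n = 3). This difference was below all controls on all 2-day arrays, and the highest 7-day array, at -0.06, lay inside the control range of -0.07 to -0.02. Turned round, miR-27b relative to miR-24 was above all controls on all 2-day arrays, as were miR-23a, miR-27a and miR-189 among the members, and as were 14.1% of the 177 probes set against miR-24. Tested in a model of every probe relative to miR-24 on its own array, miR-23a, miR-23b, miR-27a and miR-27b had estimates between 0.08 and 0.13 log2 units against control at 2 and 7 days, near the median over the 177 probes of 0.10 at 2 days and 0.11 at 7 days, and none passed.

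**Figure D2:**
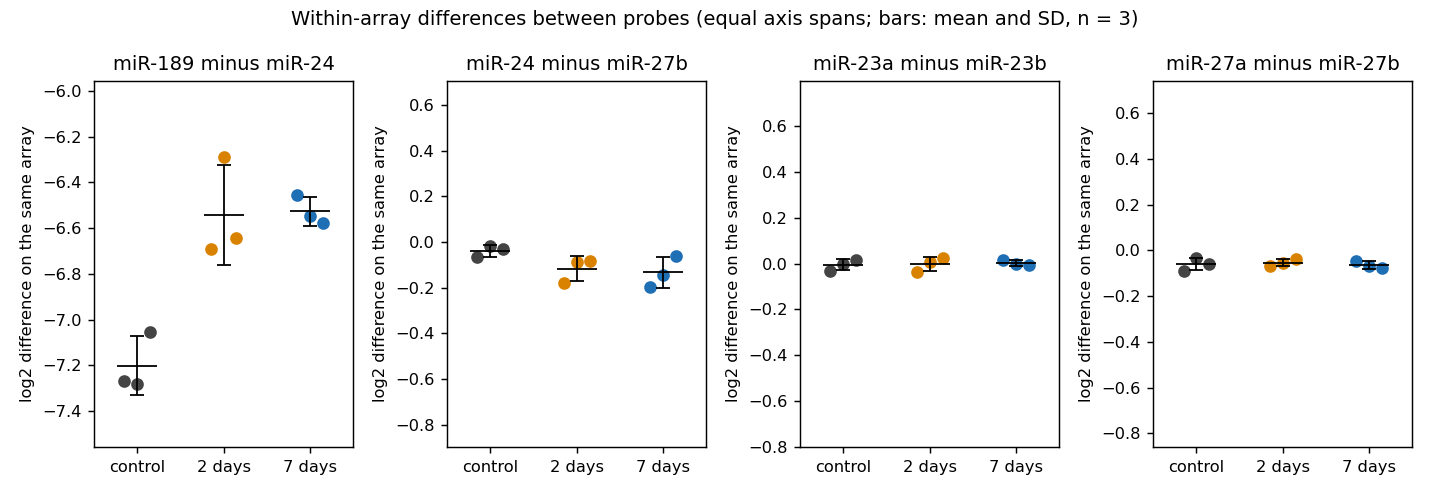
Differences in log2 level between 2 probes of the same array, by group; each point is 1 array and bars show the mean and SD of 3 arrays. The miR-23a and miR-23b pair and the miR-27a and miR-27b pair stay level across groups, and miR-189 relative to miR-24 is higher on all 6 suspended arrays.

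MiR-189, the arm that lies opposite miR-24 in the chromosome 17 hairpin, gave the largest estimates of the 6. Its log2 levels were 6.55, 6.61 and 6.87 in controls, 6.94, 7.46 and 7.15 after 2 days, and 7.19, 7.18 and 7.28 after 7 days. No suspended array overlapped the controls, although the lowest 2-day array exceeded the highest control by little. The higher level was also seen in the values deposited by the authors, which were 32, 47 and 68 in controls, 69, 104 and 77 after 2 days, and 104, 105 and 98 after 7 days.

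In limma, the log2 difference of miR-189 from control was 0.51 ± 0.15 at 2 days, a 1.42-fold difference (95% interval 0.17 to 0.84, unadjusted p = 0.00878, adjusted p = 0.260). At 7 days it was 0.54 ± 0.15, a 1.45-fold difference (0.20 to 0.88, unadjusted p = 0.00645, adjusted p = 0.191). It ranked 6th by p-value among the 178 tested probes at both times. No overlap with controls in the higher direction was seen for 2.25% of tested probes at 2 days and for 11.2% at 7 days, so at 7 days that pattern was common on these arrays.

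At an adjusted p under 0.05 the test called 0 of 6 members at 2 days, where it called 0.562% of tested probes (1 probe), and 0 of 6 at 7 days, where it called 0% of them. At an unadjusted p under 0.05, miR-189 was the 1 member of 6 at each time, and 6.74% of all tested probes were at 2 days and 14% at 7 days. Of the tested probes, 3.93% were higher at that unadjusted level at 2 days and 7.3% at 7 days.

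**Figure D3:**
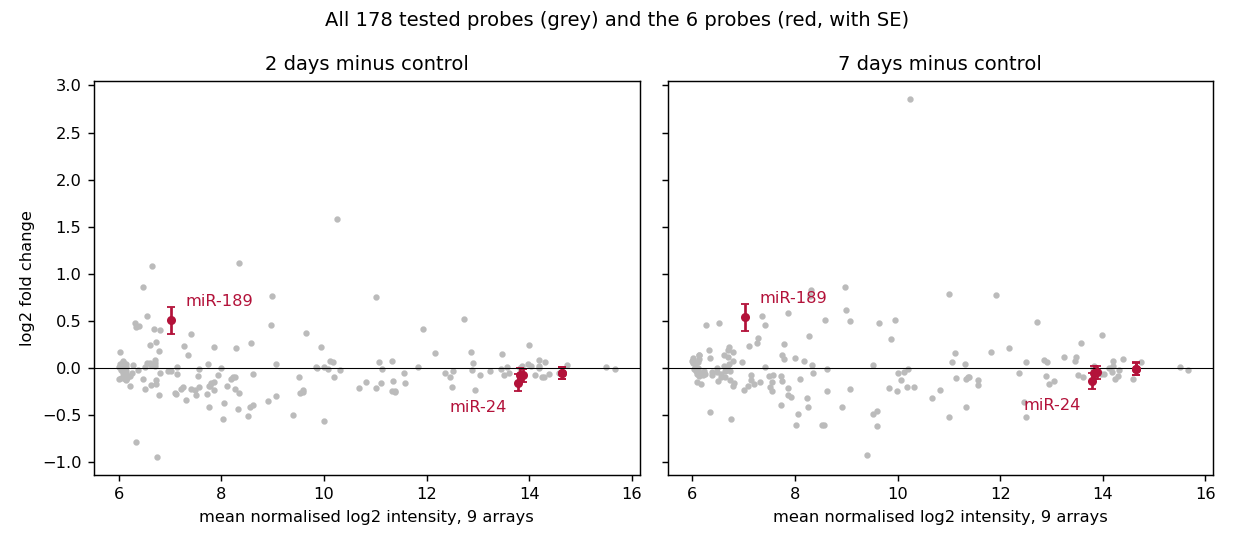
Log2 difference from control of every tested probe against its mean log2 level, at 2 and at 7 days, with the 6 members in red with their standard errors. The 5 bright members sit near 0 at the bright end, and miR-189 sits above 0 among the dim probes.

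Over the 6 suspended arrays together, miR-189 was higher than control by 0.52 ± 0.13 log2 units (95% interval 0.23 to 0.81, 1.44-fold, unadjusted p = 0.00348, limma adjusted p = 0.155). All 6 suspended arrays lay above all 3 controls, which held for 2.25% of tested probes. It was the 1 member of 6 with an unadjusted p under 0.05 in this contrast, against 10.7% of tested probes. The adjusted test called 1.69% of tested probes in this contrast, which were miR-221, miR-222 and miR-333, all lower, and no member. The other 5 members had estimates from -0.15 to -0.03, with limma adjusted p from 0.553 to 0.912, and 59.6% of tested probes were likewise negative. None of the 5 was below all controls on all 6 suspended arrays, which 3.37% of tested probes were.

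The size of the miR-189 difference depended on how its dim signal was treated. Its scanner brightness was 68.3, 80.2 and 69.0 in controls, 59.5, 209 and 155 after 2 days, and 110, 134 and 163 after 7 days, against empty-spot medians of 27.4 to 53.3. On this raw scale the first 2-day array was below all controls and the 7-day arrays were above all of them. Brightness above that array's empty-spot median was 35.8, 39.7 and 39.9 in controls, 32.2, 155 and 109 after 2 days, and 80.0, 104 and 129 after 7 days.

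The first 2-day array was the dimmest array in its empty spots, and its miR-189 value was above the controls after the scaling between arrays but not before it. The ratio of group means over the empty-spot median was 2.57 at 2 days and 2.72 at 7 days, while the ratio of raw brightness was 1.95 and 1.87. In the authors' deposited values it was 1.70 and 2.09. The offset of 50 units added in the background correction is of the same order as the miR-189 signal and makes its fold difference smaller. With the empty-spot median subtracted in place of that correction, the log2 difference was 1.03 at 2 days and 1.12 at 7 days, and with the authors' values it was 0.81 and 1.13. None of these 4 estimates passed adjustment.

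**Figure D4:**
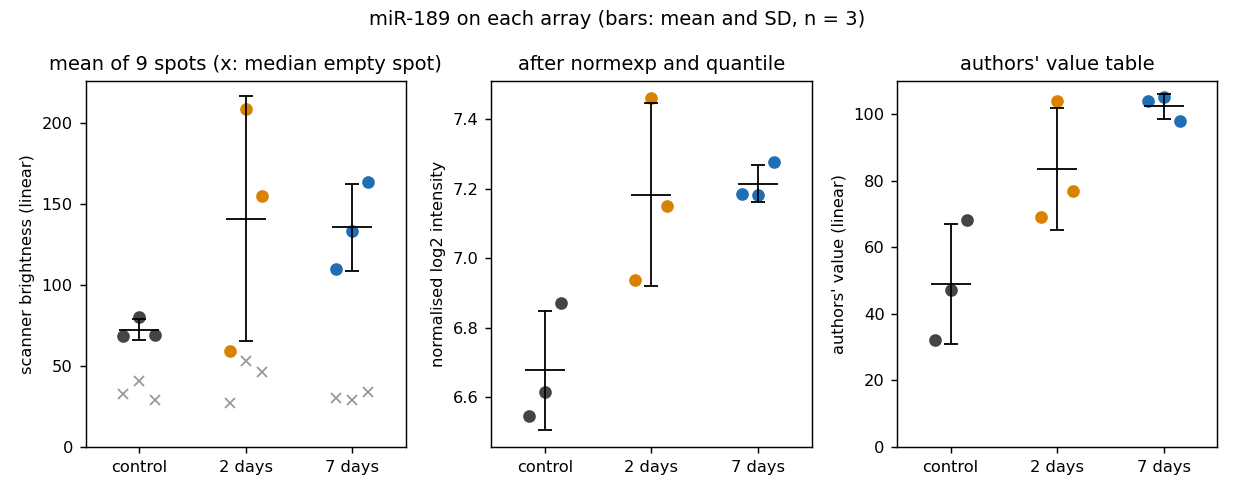
MiR-189 on each array as linear scanner brightness with crosses at the empty-spot medians, as normalised log2 level and as the linear value in the authors' table, by group; points are arrays and bars show the mean and SD of 3 arrays. The first 2-day array lies below the controls on the first scale and above them on the other scales.

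On every array all 9 spots of miR-189 were brighter than the 95th percentile of the empty spots. Against the 99th percentile the probe was detected on 8 of 9 arrays, the exception being the first 2-day array, where 1 of 9 spots was brighter. The spread among its repeat spots was 5.69% to 22.1%. Its SD between arrays of a group, pooled over groups, was 0.18 log2 units, against a median of 0.21 over all tested probes, so its estimate was about as precise as that of a typical probe.

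Because miR-189 and miR-24 are the 2 arms of the Mir24-1 hairpin, they were also compared on the same array. That removes a constant shift of the array. It does not remove the effect of quantile normalisation, which can move a dim and a bright probe differently. The miR-24 probe also reads the arm of Mir24-2, so this is not a comparison within 1 hairpin. The log2 level of miR-189 minus that of miR-24 was -7.27, -7.28 and -7.05 in controls, -6.69, -6.29 and -6.64 after 2 days, and -6.45, -6.55 and -6.58 after 7 days. Without normalisation between arrays this difference was -7.15, -7.25 and -7.21 in controls and -7.01, -5.88 and -6.44 after 2 days. After 7 days it was -6.64, -6.59 and -6.51. The SD of the 2-day arrays was 0.57 without normalisation and 0.22 with it. The value itself depends on the 2 probes' own brightness and is not an abundance ratio, so only its movement between groups is read. In the normalised levels, all 6 suspended arrays were above all controls, which held for 4.52% of the 177 probes set against miR-24. Taken alone, the 2-day arrays were above all controls for 14.1% of them and the 7-day arrays for 18.6%.

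The shift of miR-189 relative to miR-24 was 0.66 ± 0.14 log2 units at 2 days and 0.67 ± 0.14 at 7 days (limma adjusted p = 0.128 and 0.122 over 177 probes). Over the suspended arrays together it was 0.67 ± 0.12 (95% interval 0.40 to 0.94, limma adjusted p = 0.0675), higher on 6 of 6 suspended arrays. The level of miR-24 itself, at -0.15 ± 0.08 log2 units in that contrast, enters every such value, and the median shift over the 177 probes was 0.12. The value for miR-189 stayed short of the threshold, as did every other probe in that model, where 0% of 177 were called. Leaving out the first 2-day array gave 0.71 (limma adjusted p = 0.0300), leaving out the third 2-day array gave 0.70 (0.0409), and the range over alternatives was 0.61 to 1.27, with adjusted p from 0.0224 to 0.311. Expressed as scanner brightness, the miR-189 signal was 0.489% to 0.520% of the miR-24 signal in controls, 0.521% to 1.58% after 2 days and 0.821% to 0.964% after 7 days. These percentages include background: mean control brightness of miR-189 was 72.5, of which 38.5 lay above the empty-spot median. Above that median the first 2-day array was at 32.2, against 35.8 to 39.9 in controls. The step from 0.520% to 0.521% is therefore not read as a separation of the groups.

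Between 7 and 2 days, no member passed the test, and the test called 0% of tested probes. MiR-189 had a log2 difference of 0.03 ± 0.15 (95% interval -0.31 to 0.37, limma adjusted p = 0.960). No member had a negative estimate, against 43.8% of tested probes. The 5 bright members had differences of 0.02 to 0.05, and these small values, like that of miR-189, turned negative with median centring. Whether 7 days differed from 2 days by less than the width of those intervals was not detectable with 3 arrays a group.

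Across the 9 arrays the 5 bright members followed each other, with pairwise Pearson correlations of the normalised level of 0.49 to 0.94, against a median of 0.01 over all pairs of tested probes. All points share the same 9 arrays and their scaling, so this is given as a description. The probes for miR-189 and miR-24 had r = -0.38, and r = 0.43 without normalisation between arrays, so the sign depended on the scaling.

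The tested probe outside the members whose levels were most like those of miR-24 was miR-93 (r = 0.92 over 9 arrays). For miR-27a and for miR-27b it was miR-17 (r = 0.91 for each), and miR-17 was also the closest to miR-23a (r = 0.73). For miR-23b it was miR-505 (r = 0.77). The 3 closest to miR-189 were miR-29b (r = 0.75), the predicted miRNA probe MM_264 (r = 0.72) and miR-148b (r = 0.68), which are lower values than for miR-24.

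Of the other probes for a hairpin strand named with an asterisk, 15 were on the array and 9 could be tested. None passed the test at 2 or 7 days, and their median log2 difference was -0.13 at 2 days and 0.08 at 7 days, against -0.05 and -0.03 over all tested probes. At 7 days the highest were miR-126*, at 2.86 ± 0.70 (limma adjusted p = 0.138), and miR-7*, at 0.27 ± 0.13, and the lowest were miR-140*, at -0.60 ± 0.22, and miR-151*, at -0.31 ± 0.19. The 0.54 of miR-189 thus lay between the first and the second of these, and 5 of the 9 had positive and 4 had negative estimates. The asterisk did not always mark the dimmer probe of a hairpin. Mean control log2 levels were 8.90 for miR-140* and 6.13 for miR-140, and 10.85 for miR-151* and 7.09 for miR-151. For miR-126* the level was 8.77, against 14.14 for miR-126. Levels of different probes are not abundances.

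A list of 16 miRNAs with known roles in muscle mass, all of them tested, was set beside the members. None passed at 2 or at 7 days, 2 were called over the suspended arrays together, and the list's median log2 difference was -0.03 at 2 days and -0.07 at 7 days. The 2 called were miR-221 and miR-222, which restrain myoblast differentiation, at -0.55 ± 0.10 and -0.57 ± 0.09 (limma adjusted p = 0.0431 and 0.0246). At 7 days the largest differences were 0.78 ± 0.33 for miR-29b and -0.61 ± 0.11 for miR-222, and neither passed.

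The labelled tissue was checked against marker miRNAs. All 6 striated muscle markers were tested, and their summed level was 163139 to 168192 units in controls, 155771 to 167603 after 2 days and 159368 to 162749 after 7 days. The 2-day range overlapped the controls, and the highest 7-day sum lay just below the lowest control. The estimates of these markers were negative for 4 of 6 at 2 days and 5 of 6 at 7 days, and none passed the test. Quantile normalisation gives the brightest ranks the same values on every array, and miR-1 and miR-206 were the brightest of these markers. Their log2 estimates mirrored each other, at -0.0091 and 0.0091 after 2 days and -0.018 and 0.018 after 7 days. The sum and the sign counts were thus partly fixed by that step. All 4 endothelial markers were tested, with sums of 18883 to 19921, 18372 to 19964 and 21219 to 22599, so the 7-day sum lay above the controls. Their estimates did not share one sign, since at 7 days miR-126 was at 0.0017 ± 0.075 log2 units, miR-126* at the 2.86 given above, miR-221 at -0.60 ± 0.12 and miR-222 at -0.61 ± 0.11, with a list median of -0.30, and none passed at 7 days. The 4 smooth muscle and fibroblast markers had sums of 16924 to 20042 in controls, 14302 to 18026 after 2 days and 13451 to 16255 after 7 days, so the 2-day range overlapped the controls and the 7-day range lay below them. All 4 had negative estimates at both times, where 60.1% and 58.4% of tested probes did, and none passed.

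Of 6 blood cell markers 3 were tested, with sums of 7163 to 9205, 6372 to 9164 and 7352 to 7800, and of 5 nerve markers 2 were tested, with overlapping sums. Members of the miR-23, miR-27 and miR-24 clusters are made in many of these cell types. The part of these cell types in the miR-189 difference was not tested.

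**Figure D5:**
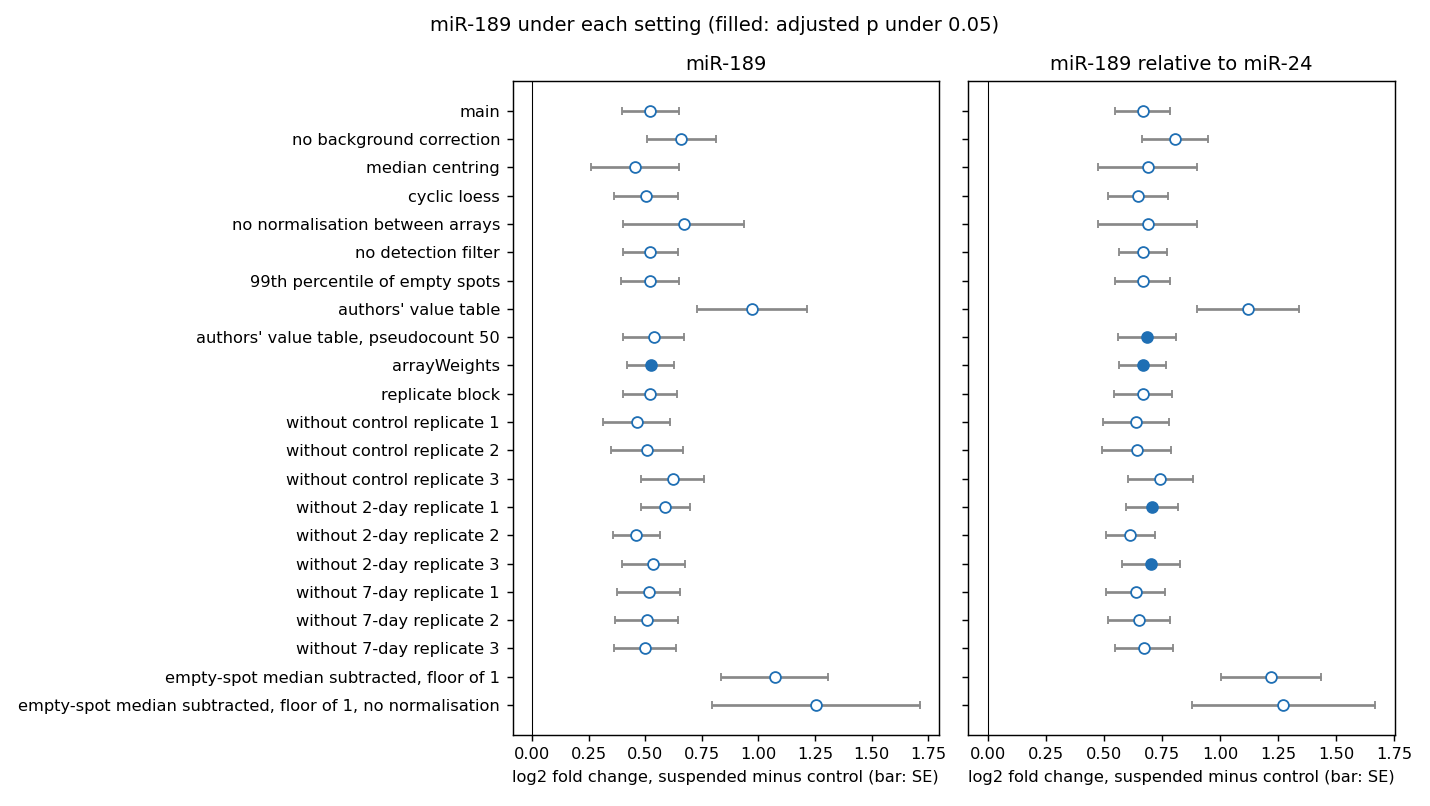
Log2 difference between the suspended and the control arrays for miR-189, and for miR-189 relative to miR-24, under the reported processing and each alternative; bars are standard errors and filled points have an adjusted p under 0.05. All points are above 0, from 0.45 to 1.25 for miR-189 and from 0.61 to 1.27 relative to miR-24.

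The estimate for miR-189 was above 0 under each of the 22 processing alternatives. Its log2 difference ran from 0.37 to 1.07 at 2 days (limma adjusted p from 0.0895 to 0.979) and from 0.35 to 1.43 at 7 days (0.0377 to 0.509). It passed the test at 7 days under 1 of 22 alternatives, which weighted arrays by quality and gave 0.50 with a limma adjusted p of 0.0377.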

How the data were processed

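The deposited scanner tables list each spot's mean brightness, spread and target sequence, per the file headers. They give neither a local background nor a slide or scan, so no batch could be modelled. Per the labels' protocols, a service provider tailed and dye-tagged small RNA from 5 µg of total RNA. The sources used here name no image software. The authors' deposited value table holds intensity values for 162 probes and served as an alternative; its centring stays unknown. The spot brightness is recorded as another unit because the deposited files write large values with commas.

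In R 4.3.3 with limma 3.58.1, brightness was corrected by normexp with an offset of 50 on all spots, without a local background. Control spots were left out, log2 values were quantile normalised and the 9 repeat spots averaged. A probe was detected where more than 0.5 of its spots exceeded the 95th percentile of the array's own empty spots, and tested where detected on every array of a group. A group-means model over the 9 arrays was fitted by lmFit and eBayes, with Benjamini-Hochberg adjustment over the tested probes at a threshold of 0.05. A second fit subtracted miR-24 from every other probe of its array. The fits were tested on simulated data.

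Correlations of deviations between same-numbered arrays of different groups were -0.40 to 0.35 over 9 pairs. Between differently numbered arrays they were -0.55 to 0.47 over 18 pairs. The reported fit modelled no pairing, which so few arrays cannot exclude. Named beside the 6 members were the 3 probes most correlated with miR-189, the 1 most correlated with each other member, the 2 highest and 2 lowest asterisk probes at 7 days, and list members that passed, or else the 2 largest. Members and lists were chosen with earlier results of these data known. Sequences and coordinates come from RefSeq, GRCr8, matched by name; 5 of 6 targets were identical and all 6 hairpins were found. In all 22 alternatives were tried, covering background, scaling, filters, the authors' values, weights, a replicate block and leaving out each array. The 2 that subtract the empty-spot median, with a floor of 1, were chosen after seeing the data.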

Additional observations from a re-analysis of the deposited data

How the results depend on the processing

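No member was called at 2 days, or at 7 against 2 days, under any alternative. With array weights, whose fit stopped at a convergence tolerance, 1 member was called at 7 days: miR-189, at 0.50 (limma adjusted p = 0.0377). Over the suspended arrays array weights gave miR-189 0.52 (0.0443), and relative to miR-24 0.67 (0.0224). That last difference also passed with the authors' values plus 50, at 0.69 (0.0281), and ranged from 0.61 to 0.74 when 1 array was left out. Fitting only the groups compared gives no value for contrasts over the suspended arrays. With the replicate number as a block, miR-189 had adjusted p = 0.259 at 2 days, 0.180 at 7 days and 0.163 over both, and no member's call changed. The cause of these shifts was not tested.

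All probes called at 2 days, 1 in the fit reported, were 0 with median centring, without normalisation, with only the groups compared and with the empty-spot median subtracted, 2 without the detection filter, 4 with array weights and 0 to 4 with 1 array left out. At 7 days, against 0, they were 1 with median centring, 10 without normalisation, 2 with the authors' values with or without 50 added, 5 with only the groups compared, 10 with array weights, 8 with the empty-spot median subtracted and no normalisation, and 0 to 3 with 1 array left out. At 7 against 2 days, 1 was called under that subtraction without normalisation.

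Signs of values that passed no test turned as follows. At 7 days without normalisation, miR-23a was 0.11, miR-27a 0.15, miR-23b 0.11, miR-27b 0.14 and miR-24 0.085, and with the empty-spot median also subtracted they were 0.12, 0.16, 0.11, 0.14 and 0.086. At 7 against 2 days under median centring, they were -0.063, -0.083, -0.059, -0.084 and -0.064, and miR-189 was -0.20. Array weights gave -0.032 for miR-24 and -0.052 for miR-189. With 1 array left out, 7-day values ranged from -0.031 to 0.022 for miR-23a and -0.026 to 0.0037 for miR-23b, and 7 against 2 days from -0.00065 to 0.048 for miR-27a, -0.040 to 0.068 for miR-24 and -0.090 to 0.18 for miR-189.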
